A study of Mus musculus with 6 samples.

Results

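The 7 genes Fosl1, Fosl2, Fos, Fosb, Jun, Junb and Jund encode the Fos and Jun proteins, the core of the transcription factor AP-1. They were found by their Ensembl gene identifiers in a table of ribosome footprints that lists 22322 genes, and all 7 were present. The members were selected on earlier results of the same comparison, activated against resting coding-sequence (CDS) footprints with 5' UTR footprints as support, where Fosl1 stood at the top. Every value given here for activated against resting cells is therefore a description of the 7 genes and no test of them.

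The study followed mRNA loss with and without translation. Its ribosome profiling libraries, which count short mRNA fragments protected by ribosomes, hold the state at 0 h of any inhibitor treatment. Both groups were primary CD4+ T cells of 6 week old female C57BL/6J mice, isolated from spleen and lymph nodes by negative selection and labelled untreated. The 3 resting libraries had no activation. The 3 activated libraries came from cells given beads that carry CD3 and CD28 antibodies, which mimic the signals of the T cell receptor and its main costimulator. The sources used here give neither the length of activation nor whether a library came from 1 animal or a pool. Libraries are labelled biological replicates 2, 3 and 4 in each group, and the spread between them may in part be technical. Values for 3 libraries of a group are listed in that order throughout. The deposited table pairs no identifier with a symbol, so the labelled cell type was not checked against its markers here.

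AP-1 is a dimer. Fos proteins cannot pair with each other and need a Jun partner, whereas Jun proteins can pair with themselves or with a Fos protein. The dimer binds DNA through the basic region and leucine zipper that all members share. Fos, Fosb, Jun and Junb are immediate early genes, transcribed within minutes of a stimulus without new protein, and their mRNAs are known for being short-lived. In T cells AP-1 acts with NFAT on cytokine genes such as Il2.

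Promoters of 6 members (all but Fosl1) were matched by symbol in RefSeq's table for GRCm38.p6, which gives 250 bases before and 50 after each start. The 100 bases before the start of Fos and Jun are shown. Both stretches held a searched motif, as did that of Fosb, whose listed start lies inside the gene. They set side by side 1 gene whose footprints differed widely between the groups and 1 whose footprints differed little. The choice thus used the footprint values, and a link between motifs and footprints was not tested. Capitals mark the matches, and each line runs 5′ to 3′ on the strand of its gene.
Fos, chr12:85473790-85473889, plus strand: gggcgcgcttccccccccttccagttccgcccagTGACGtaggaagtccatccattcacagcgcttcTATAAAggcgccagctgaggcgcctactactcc
Jun, chr4:95052223-95052322, minus strand: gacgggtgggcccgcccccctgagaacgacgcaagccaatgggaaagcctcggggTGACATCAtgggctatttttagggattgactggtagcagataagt

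TGACG is the core of the cyclic AMP response element, bound by CREB and ATF proteins, and TGACATCA is a variant of it known from the Jun promoter. Both strands were searched. TGACG lay 66 and 129 bases before the start of Fos, 60 before the start listed for Fosb and 106 before that of Junb, and 20.8% of the 32851 promoters in the table held it. TGACATCA lay 45 bases before the start of Jun, and 3.62% of promoters held it. TATAAA lay 33 bases before the start of Fos and directly at the start of Junb, and 13.6% of promoters held it. The full element TGACGTCA, which overlaps TGACG, the AP-1 site TGACTCA and the CArG box of serum response factor were in none of the 6 windows. They were in 1.79%, 5.20% and 1.63% of all promoters. Sites further than 250 bases before a start lay outside the windows and were not searched. The start listed for Fosb lies inside the outer limits of the gene, so its window overlaps the gene itself. A match is a run of letters and not a bound site, and no factor binding was measured in these libraries.

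CDS counts summed to between 437200 and 594508 in resting and to between 511483 and 1074656 in activated libraries. Levels are CDS counts scaled to a common library size with TMM factors (CPM). They compare 1 gene between libraries and never different genes with each other, because coding lengths were not used. Bulk libraries cannot tell a change in every cell from a change in the share of cells that express a gene. Footprints cannot tell more mRNA from more ribosomes on each mRNA.

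All 4 Fos genes had more CDS footprints in every activated library than in any resting library, and so did Jun and Junb. Jund overlapped between the groups. Each Fos gene had a larger log2 change than each Jun gene, with the TMM scaling and in all 14 alternatives to the fit. In the fit over all genes 6 of the 7 members were past an edgeR adjusted p of 0.05 and higher in activated cells, and 0 were lower (at an unadjusted p of 0.05 also 0). Of the 6775 genes tested, 24.1% were past it and higher, and 21.4% were past it and lower. No overlap with all activated libraries on top was found for the same 6 members and for 28.1% of genes tested. Nothing is read from these counts, since this comparison chose the members. The median log2 change over the 7 members was 2.37, against -0.04 over all genes tested. All 7 passed the filter on low counts, Fosl1 and Fosb only through their activated libraries.

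**Figure D1:**
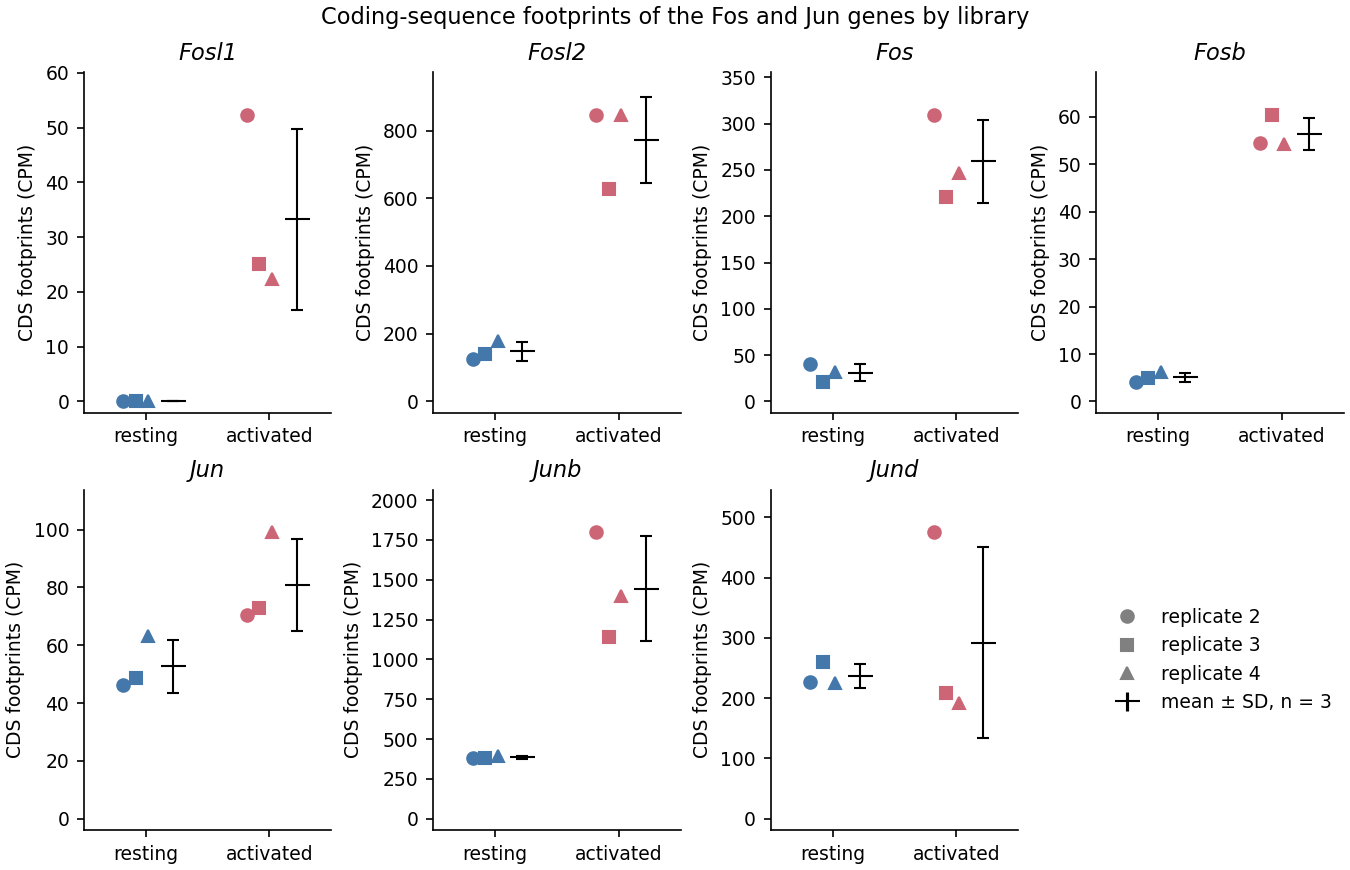
CDS footprints of each gene in CPM (vertical axis, a separate linear scale for each gene) in the 3 resting and 3 activated libraries, with the group mean and SD in black. The groups are apart for every gene except Jund, whose activated replicate 2 lies at 475 CPM while its other activated libraries lie at 209 and 193 CPM, below all resting libraries.

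Fosl1 (ENSMUSG00000024912.5; chromosome 19, 5447698 to 5455938 in GRCm38, the assembly also called mm10) encodes Fra-1, a Fos protein that lacks the strong activation domain of Fos and is itself a target of AP-1 in many cells. No resting library held a CDS count of it, and the activated libraries held 23, 20 and 21 counts. Those counts correspond to 52.3, 25.1 and 22.4 CPM, so activated replicate 2 reached a like count in a library of smaller depth. A floor of 3 counts for the whole resting group corresponds to 1.72 CPM. The activated libraries together lay at 29.4 CPM, 17.1 times that floor. This ratio allows for error in the resting counts only and not for the spread of the activated libraries. Within a single resting library a count of 0 allows up to 3 counts, or 6.31, 4.87 and 4.61 CPM. In the 5' UTR Fosl1 had 1 count in the resting group and 4 in the activated group, too few for a level. The RefSeq table places 2776 bases of the gene Ccdc85b over the end of Fosl1. The strand setting of the counting is not known here, so records from that stretch have an uncertain source.

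Fos (ENSMUSG00000021250.12; chromosome 12, 85473890 to 85477274) is the founding member, the cellular form of a viral oncogene. Its resting libraries gave 19, 13 and 21 CDS counts, or 40.0, 21.1 and 32.3 CPM. Its activated libraries gave 136, 176 and 232 counts, or 309, 221 and 247 CPM. The lowest activated library was 5.54 times the highest resting library. The means were 31.1 ± 9.49 CPM at rest and 259 ± 45.1 CPM after activation (SD, n = 3). The log2 change was 3.06 (SE 0.23).

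Fosb (ENSMUSG00000003545.2; chromosome 7, 19302696 to 19310118) resembles Fos in its activation domain, and a splice form without that domain, ΔFosB, is known for its stability. Resting libraries gave 2, 3 and 4 CDS counts, or 4.21, 4.87 and 6.15 CPM. Activated libraries gave 24, 48 and 51 counts, or 54.5, 60.3 and 54.3 CPM. The activated libraries lay close together, at 56.4 ± 3.42 CPM (SD, n = 3), and the lowest was 8.83 times the highest resting library. The log2 change was 3.41 (SE 0.35), on a resting level that rests on 9 counts in all. RefSeq lists 3 transcripts of Fosb, which the table counts as 1 gene, so splice forms cannot be told apart.

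Fosl2 (ENSMUSG00000029135.10; chromosome 5, 32136472 to 32157840) encodes Fra-2, the other Fos protein without a strong activation domain. Resting libraries lay at 126, 139 and 178 CPM, from 60 to 116 CDS counts. Activated libraries lay at 845, 626 and 845 CPM, from 372 to 794 counts. The lowest activated library was 3.51 times the highest resting library, and the log2 change was 2.37 (SE 0.18). Among the Fos genes Fosl2 had the most CDS counts in each of the 6 libraries. Longer genes collect more counts, so this order of counts is no order of protein output.

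Junb (ENSMUSG00000052837.5; chromosome 8, 84976909 to 84978748) encodes a Jun protein that pairs with BATF as well as with Fos proteins in T cells. It held the most CDS counts of the 7 genes, 182, 234 and 256 at rest and 791, 909 and 1311 after activation. The resting libraries were almost level at 383, 380 and 393 CPM, while the activated libraries spread over 1797, 1143 and 1396 CPM. The lowest activated library was 2.90 times the highest resting library, and the log2 change was 1.90 (SE 0.17).

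Jun (ENSMUSG00000052684.4; chromosome 4, 95049036 to 95052222) encodes c-Jun, a strong activator among the Jun proteins and the target of the kinase JNK. It had few CDS counts in either state, 22, 30 and 41 at rest and 31, 58 and 93 after activation. On the CPM scale these made 46.3, 48.7 and 63.0 at rest and 70.4, 72.9 and 99.0 after activation. The groups did not overlap, but the lowest activated library was only 1.12 times the highest resting library. The log2 change was 0.63 (SE 0.23). It was 0.29 with library totals alone, a scaling that moved the median of all genes to -0.38. Its place past the threshold was lost in 6 of 14 alternatives, among them leaving out resting replicate 2 (0.56), resting replicate 3 (0.58) or activated replicate 4 (0.47).

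Jund (ENSMUSG00000071076.5; chromosome 8, 70697739 to 70700616) is the Jun gene best known for steady expression in resting cells. Resting libraries lay at 227, 260 and 224 CPM, and activated libraries at 475, 209 and 193 CPM. Of the activated libraries 1 was therefore above and 2 were below all resting libraries. The log2 change of 0.25 (SE 0.26) depended on activated replicate 2, and leaving that library out gave -0.22. Library totals alone gave -0.09. Activated replicate 2 had the fewest CDS counts of its group, 511483. Over all genes it also had the most 5' UTR counts for each 100 CDS counts, 20.0 against 15.1 and 14.3 in the other activated libraries. The part of these features in the Jund level was not tested.

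**Figure D2:**
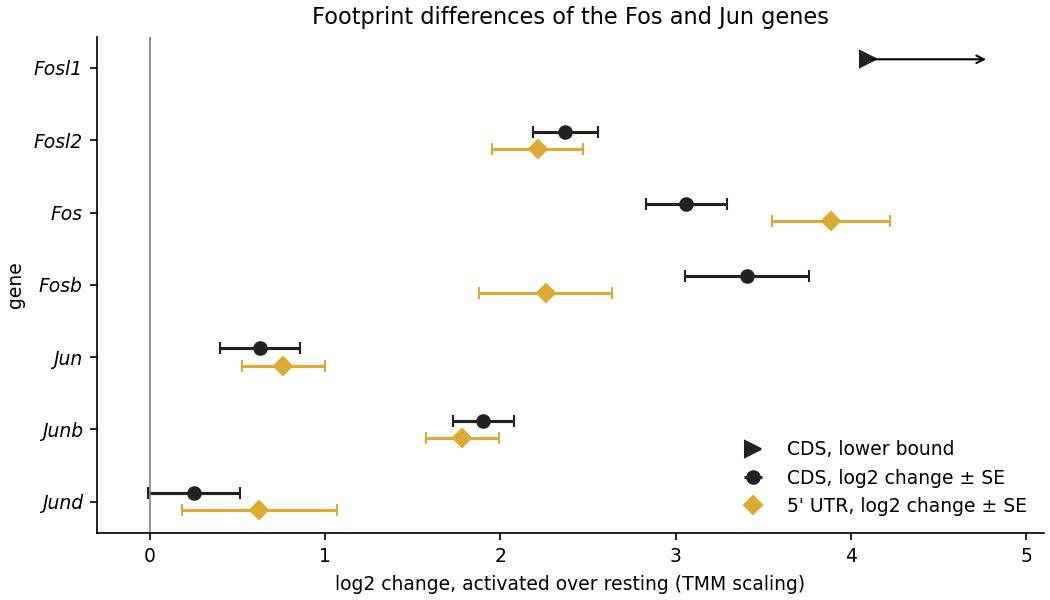
Log2 change of footprints in activated over resting cells (horizontal axis) for each gene, with its standard error. Circles show the CDS and diamonds the 5' UTR, each scaled by its own TMM factors. The arrow for Fosl1 starts at its pooled activated CDS level over the resting floor, a log2 value of 4.10. The lower bound of the legend covers error in the resting counts only. Fosl2, Fos, Fosb and Junb lie between 1.78 and 3.89, and Jun and Jund lie below 1 in both regions.

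The members thus spread widely among themselves. Of the genes tested, 64 had a higher log2 change than Fosb, 93 than Fos, 179 than Fosl2, 321 than Junb, 1583 than Jun and 2494 than Jund. The SE was between 0.17 and 0.35 for the members other than Fosl1.

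The family took a small part of all CDS counts in both states. Its share was 0.0899%, 0.0930% and 0.0982% in the resting libraries and 0.310%, 0.206% and 0.250% in the activated ones. These shares use library totals and no scaling factor, and the groups did not overlap.

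Within the family, the Fos genes held a larger part and Jund a smaller part in activated cells. The 4 Fos genes went from 21.4 ± 2.47% to 38.5 ± 3.11% of the family's CDS counts (SD, n = 3). Jund held 27.5%, 30.4% and 25.0% at rest and 13.2%, 8.85% and 6.75% after activation. Its share was lower in every activated library, also in replicate 2, where its own level was high.

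Jun went from 6.11 ± 0.79% to 2.84 ± 0.79% of the family (SD, n = 3), although its own level was higher in activated cells. Junb went from 44.9 ± 1.28% to 49.1 ± 0.72%, Fosl2 from 17.2 ± 2.40% to 26.5 ± 3.07%, and Fos from 3.63 ± 1.18% to 8.87 ± 0.45%. Shares sum counts of genes of unlike length and move against each other within a fixed whole. They therefore do not rank the genes, and a moved share does not give the direction of a gene's own level.

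**Figure D3:**
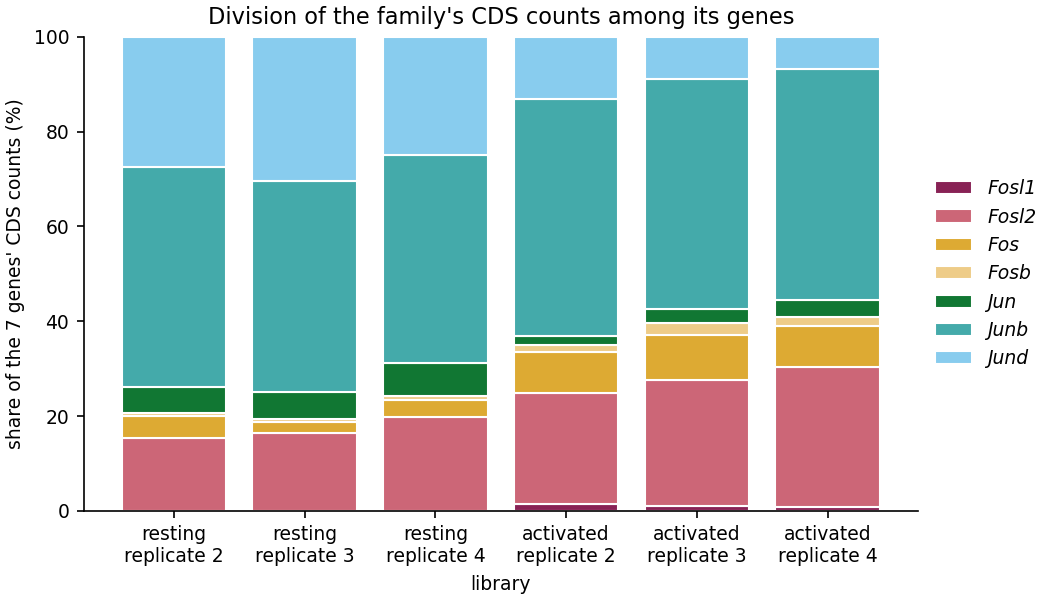
Division of the CDS counts of the 7 genes (vertical axis, percent) in each of the 6 libraries, stacked by gene. Jund takes 25.0% to 30.4% in resting and 6.75% to 13.2% in activated libraries, and Fosl2 takes 15.3% to 19.9% and 23.5% to 29.6%.

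The 5' UTR of an mRNA is scanned before the start codon, and footprints there can come, for example, from upstream reading frames. Of the 7 members 6 passed the filter on 5' UTR counts, all except Fosl1. Fos and Fosb passed it only through their activated libraries. Of the 6 members tested, 5 were past an edgeR adjusted p of 0.05 and higher in activated cells. So were 22.2% of the 2200 genes tested. The same 5 (Fosl2, Fos, Fosb, Jun and Junb) had no overlap between the groups, with activated libraries on top, as had 26.9% of genes tested. The 5' UTR is part of the values that chose the members, so nothing is read from these counts either.

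Fos had the largest 5' UTR difference of the members tested. It had 3, 3 and 6 counts there at rest and 77, 93 and 94 after activation. The lowest activated library was 9.68 times the highest resting library on the CPM scale, and the log2 change was 3.89 (SE 0.34). For each 100 of its own CDS counts, Fos had 15.8, 23.1 and 28.6 counts in its 5' UTR at rest and 56.6, 52.8 and 40.5 after activation. No resting library reached an activated one, and the means were 22.5 ± 6.41 and 50.0 ± 8.42 (SD, n = 3). The resting values rest on the 3, 3 and 6 counts above. The share of all genes without overlap in this ratio was not computed.

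Fosb held more counts in its 5' UTR than in its CDS in every library. Its 5' UTR had 4, 6 and 19 counts at rest, beside the 2, 3 and 4 of its CDS, and 47, 63 and 97 after activation, beside 24, 48 and 51. With 9 resting CDS counts in all, its counts are not divided by each other library by library. The log2 change in the 5' UTR was 2.26 (SE 0.38), against 3.41 in the CDS. Resting replicate 4 held 19 of the 29 resting 5' UTR counts, and without that library the values were 3.09 and 3.57.

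Jun also held more counts in its 5' UTR than in its CDS in each of the 6 libraries. It had 37, 49 and 48 at rest and 68, 122 and 154 after activation. For each 100 CDS counts these were 168, 163 and 117 at rest and 219, 210 and 166 after activation, with overlap between the groups. The log2 change in the 5' UTR was 0.76 (SE 0.24), and it was not past the threshold in 6 of 12 alternatives, which include leaving out any library but activated replicate 2.

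In Fosl2, 5' UTR and CDS counts were nearly equal in number. For each 100 CDS counts its 5' UTR held 78.3, 86.0 and 93.1 at rest and 119, 83.7 and 84.5 after activation, and activated replicate 2 alone lay outside the resting range. Junb had 55.8 ± 4.62 at rest and 64.4 ± 9.09 after activation (SD, n = 3), with overlap. Jund had 11.1, 11.3 and 8.90 at rest and 20.6, 21.1 and 8.29 after activation. The sum over all genes gave 14.6 ± 0.85 and 16.5 ± 3.09 (SD, n = 3). These numbers depend on the lengths of both regions, so their size cannot be compared between genes as ribosome density.

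**Figure D4:**
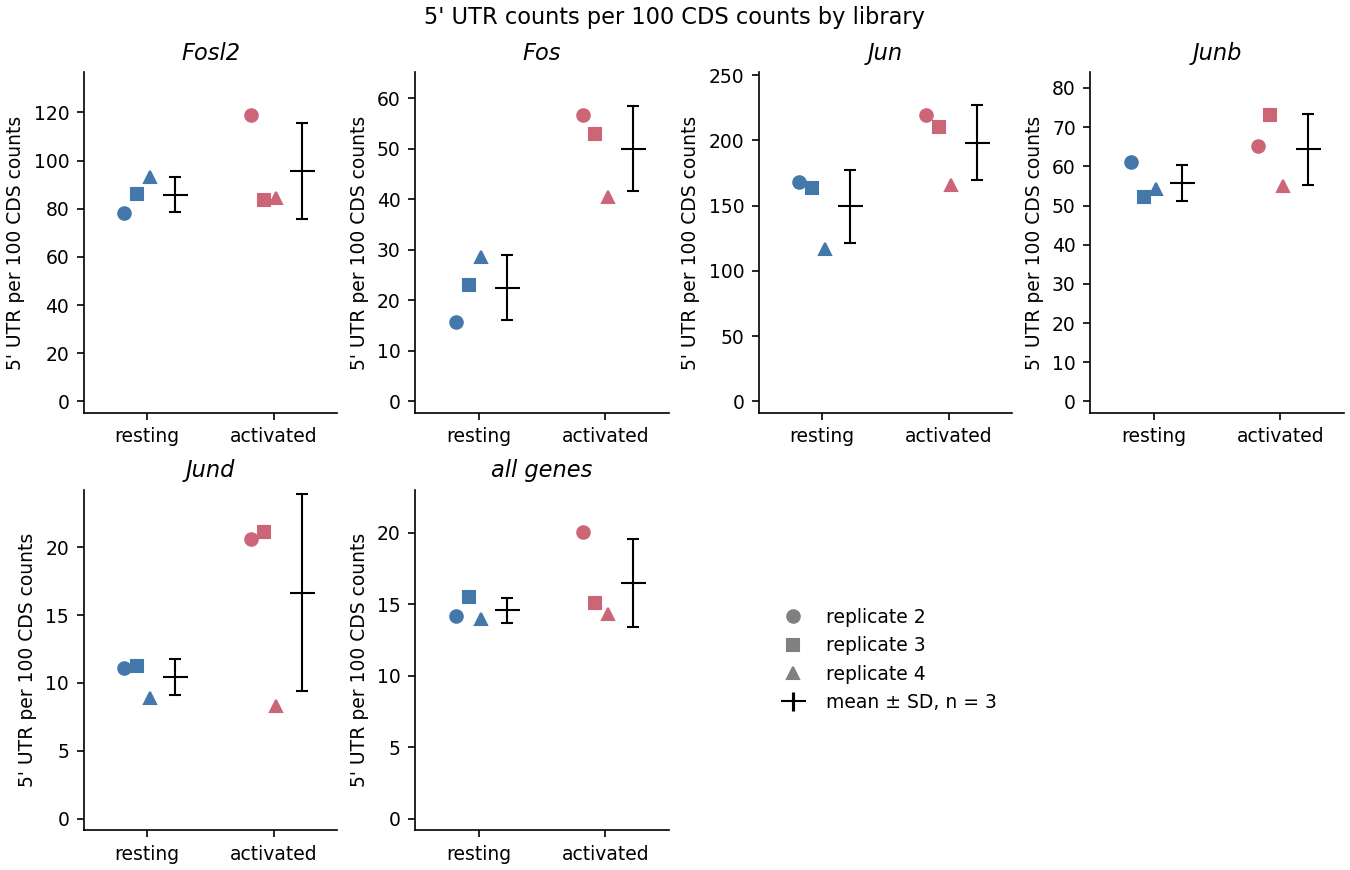
Counts in the 5' UTR for each 100 CDS counts (vertical axis, a separate linear scale for each panel) in each library for the 5 members with at least 10 CDS counts in each group and for the sum over all genes, with the group mean and SD in black. Fos is higher in all activated libraries, and the groups overlap in the other panels. Fosl1 and Fosb are not shown, and the share of all genes without overlap was not computed.

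Taken relative to the CDS in 1 edgeR model over both regions, 0 of the 6 members tested differed between the groups at an adjusted p of 0.05, and 0.556% of the 3416 genes tested did. At an unadjusted p of 0.05 also 0 members did, and no other tool was run for this model. The log2 change of the ratio was 0.84 (SE 0.48) for Fos and -1.10 (SE 0.54) for Fosb. The Fosb value rests on few resting counts and was -0.42 without resting replicate 4. For Fosl2, Jun, Junb and Jund it was -0.16 (SE 0.25), 0.16 (SE 0.32), -0.09 (SE 0.24) and 0.35 (SE 0.37). The count ratios of Fos lay apart between the groups, while its change in this model was past neither p threshold. Both regions are part of the values that chose the members, so nothing is read from the 0 members either.

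Few footprints lay past the stop codon or in introns. The 3' UTR held 0.456% of the CDS, 5' UTR and 3' UTR counts of Fos in the 6 libraries together and 0.750% of those of Junb. It held 3.23% for Fosl2 and 2.21% for the sum over all genes. Introns held 6 counts of Fosl2 and 2 of Fosb in the 6 libraries, and 0 of the other 5 members. Which members have introns was not looked up here, and a gene without introns can hold no such count.

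With all libraries summed, records at the edge of a coding sequence made up the largest share in Fosl1 and Fos, an order that did not hold in each library. A second CDS column counts in HTSeq's intersection-nonempty mode, which by that tool's definition also takes records that reach beyond the feature. Of its counts, 16.9% for Fosl1 (13 of 77) and 12.1% for Fos (82 of 679) were not in the first CDS column. The share was 4.65% for Fosl2, 5.71% for Fosb, 5.82% for Jun, 6.50% for Junb, 5.83% for Jund and 9.18% for the sum over all genes. For Fos it was 5.00%, 35.0% and 8.70% in the resting libraries, on 20 to 23 counts each, and 4.90%, 14.6% and 13.1% in the activated ones. In activated replicate 2 both Fos and Fosl1 (4.17%) were below the 7.74% of all genes. Fosl1 had 1 of 24, 8 of 28 and 4 of 25 such counts there, too few to order the libraries. The mode of the first column is not named in the headers, and counts do not tell at which end of the coding sequence these records lay.

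The genes with a profile most like that of Junb and of Fosl1 were sought by the root mean square difference of log2 CPM over the 6 libraries, each gene centred on its own mean. Closest to Junb was ENSMUSG00000035356.15, at 0.0825 on the log2 scale, with 24, 28 and 29 CDS counts at rest and 104, 113 and 151 after activation. Closest to Fosl1 was ENSMUSG00000027368.6, at 0.173, with 50, 78 and 55 counts at rest and 785, 716 and 778 after activation. As with Fosl1, its counts were alike in the activated libraries although replicate 2 was the least deep. The gene was picked for its likeness to Fosl1 over these same libraries, so this shared trait lends no weight to the Fosl1 counts. Of the other members, Fosl2 was nearest to Junb (0.296) and Fos was nearest to Fosl1 (0.424). Of the genes tested, 3.48% were nearer to Junb than Fosl2 was, and 0.62% were nearer to Fosl1 than Fos was. For Fosl1 these distances depend on the prior count of 2 that stands in for its resting zeros.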

How the data were processed

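The authors deposited 1 table of raw counts, 36 columns for 6 libraries, counted per gene in CDS (2 modes), 5' UTR, 3' UTR, exons and introns, per the file headers. Per the submitters' processing notes, the tools were TopHat2 2.0.13, Bowtie 1.1.1.0 and HTSeq, with the build mm10. Annotation release, trimming, strand and removal of ribosomal RNA: not given in the sources used here. Records that aligned more than once, 65.8% to 79.6% of a library, and other rows that name no gene stayed out of sizes and tests.

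CDS and 5' UTR counts were fitted over all genes with edgeR 4.0.16 in R 4.3.3 (filterByExpr, TMM, glmQLFit, glmQLFTest, two-sided, Benjamini-Hochberg over all genes tested, threshold 0.05); DESeq2 1.42.0 was an alternative. Genes in the model of both regions needed an average of 5 counts in each. The fits were also run on simulated data, and no conclusion is drawn from that run here. It required a minimum recovery of changed genes for the CDS and 5' UTR fits, but not for the model of both regions. Each SE is the log2 change, without its sign, divided by the root of the F statistic. Floors cover counting error of the resting counts only. The labels do not state a pairing. Same-numbered libraries deviated together with correlations of 0.13, 0.07 and 0.23 across genes, and differently numbered ones with -0.16 to 0.0075. Each library was thus closest to the same-numbered library of the other group. The main fit used no pairing, and the replicate block was an alternative.

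Members, lists and tests were chosen with earlier results of these data known. The rule for named genes took all 7 members, genes of 7 pathway lists and of the marker lists, and the genes nearest to Junb and Fosl1. The reference gene table held an Ensembl identifier for 0 genes, so those lists were not run. Footprint density was not computed, since no coding lengths were used here. Alternatives were other scalings, no filter, DESeq2, other count columns, the replicate block and leaving out each library.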

Additional observations from a re-analysis of the deposited data

How the results depend on the processing

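The number of members past the threshold in the CDS was 6 and stayed at 5 or 6 under 14 alternatives, Jun being the gene that moved. All members except Jund kept a positive CDS log2 change under each of them; Jund ran from -0.22 to 0.52. The lowest values of Fosl2, Fos, Fosb and Junb were 2.03, 2.72, 2.84 and 1.56. Exon counts gave Fosl1 a resting count of 1. In the 5' UTR 4 or 5 members were past the threshold, and DESeq2 called 587 genes against 925; Jund passed only without activated replicate 4 (1.07).

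For the 5' UTR relative to the CDS, genes past the threshold numbered 19, 3 with 1 scaling for both regions, 10 with the replicate block, and 2 to 25 without each library, with 0 members in each case. The replicate block left 6 members past the threshold in the CDS and 5 in the 5' UTR. The family's share was 0.162 percentage points higher in activated cells, 0.242 when taken over exon counts. Leaving out each library moved it between 0.134 and 0.186. The difference in 5' UTR counts for each 100 CDS counts then ran over -1.71 to 15.8 for Fosl2, reversed without activated replicate 2, 24.2 to 32.3 for Fos, 32.7 to 65.3 for Jun, 4.21 to 13.3 for Junb and 4.01 to 10.4 for Jund. The cause was not tested. Depth limits Fosl1 and the resting level of Fosb.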
